A study of Mus musculus with 8 samples.

Results

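The fat of DU6 mice was set against the fat of DU6i mice, an inbred line derived from DU6, by their transcript levels on Affymetrix arrays. The comparison used 4 of the 8 arrays in the series: 1 chip A and 1 chip B array of DU6, and the same of DU6i. The chips carry different probe sets, so ratios were taken within chip A and within chip B only. Of 13069 probe sets without the AFFX prefix of control probe sets, 5478 were above a noise floor in at least 1 of both lines, 3445 on chip A and 2033 on chip B. These gave 1 value each for 3405 genes of 6137 with a name on the chips.

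DU6 mice are large and fat after long selection on body weight. DU6i was bred from this stock by inbreeding, so that its animals are close to genetically identical, whereas DU6 is outbred. The 2 remaining lines of the series, the unselected control line DUKs and the inbred strain DBA, are given below as side values. What is said here of the breeding of the lines comes from general knowledge and goes beyond the labels. All groups were males aged 42 days, with no treatment in the labels, and each line was 1 pool of RNA from the epididymal fat of 20 animals. Differences between animals cannot be seen in a pool, and with 1 pool per line no test between the lines is possible and none was made.

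Epididymal fat is a visceral white fat depot that lies along the epididymis and testis. Its adipocytes take up fatty acids with lipoprotein lipase, store them as triglyceride, release them through hormone-sensitive lipase, and secrete hormones such as leptin, adiponectin and resistin. Endothelial cells, macrophages, fibroblast-like stromal cells and a mesothelial covering make up much of the rest. The epididymis, whose epithelium secretes proteins onto maturing sperm, borders the pad, and liver-type plasma proteins are made mainly by hepatocytes.

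The labelled tissue was checked on defining adipocyte genes. The hormone genes Lep, Adipoq and Retn, the fatty acid carrier Fabp4, the lipases Lpl and Lipe, the lipid droplet gene Cidec, the regulators Pparg and Cebpa and the insulin-responsive glucose transporter Slc2a4 were all above the floor in both lines. In bulk tissue, fewer cells of a type and less RNA per cell cannot be told apart.

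The signals are linear intensities, scaled by the authors to one overall level per array. The floor was the 95th percentile of the sizes of the negative signals of a chip, 1022.8 on chip A and 2258.25 on chip B. A signal at or under it was set to it, and a ratio against such a signal is written as "at least". A ratio is DU6 over DU6i, so a positive log2 ratio means higher in DU6. Counts took every ratio of at least 2-fold, by size alone. The SD of a single log2 ratio, from 379 genes with a second probe set above the floor in both lines, was 0.48 and covers differences between probe sets and chips, not between animals or pools.

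The arrays of the lines differed in the range of their signals, and in opposite directions on the chips. The 99th percentile of the signal was 18704 in DU6 and 34165 in DU6i on chip A, but 48964 in DU6 and 34486 in DU6i on chip B. Among the brightest eighth of chip A probe sets above the floor in both lines (358 probe sets), 83.2% were lower in DU6 and the median log2 ratio was -0.51, and 78 were lower at 2-fold against 0 higher. Among the brightest eighth of chip B (179 probe sets), 13.4% were lower in DU6 and the median was 0.51. The other eighths of chip A had medians between 0.03 and 0.23.

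**Figure D1:**
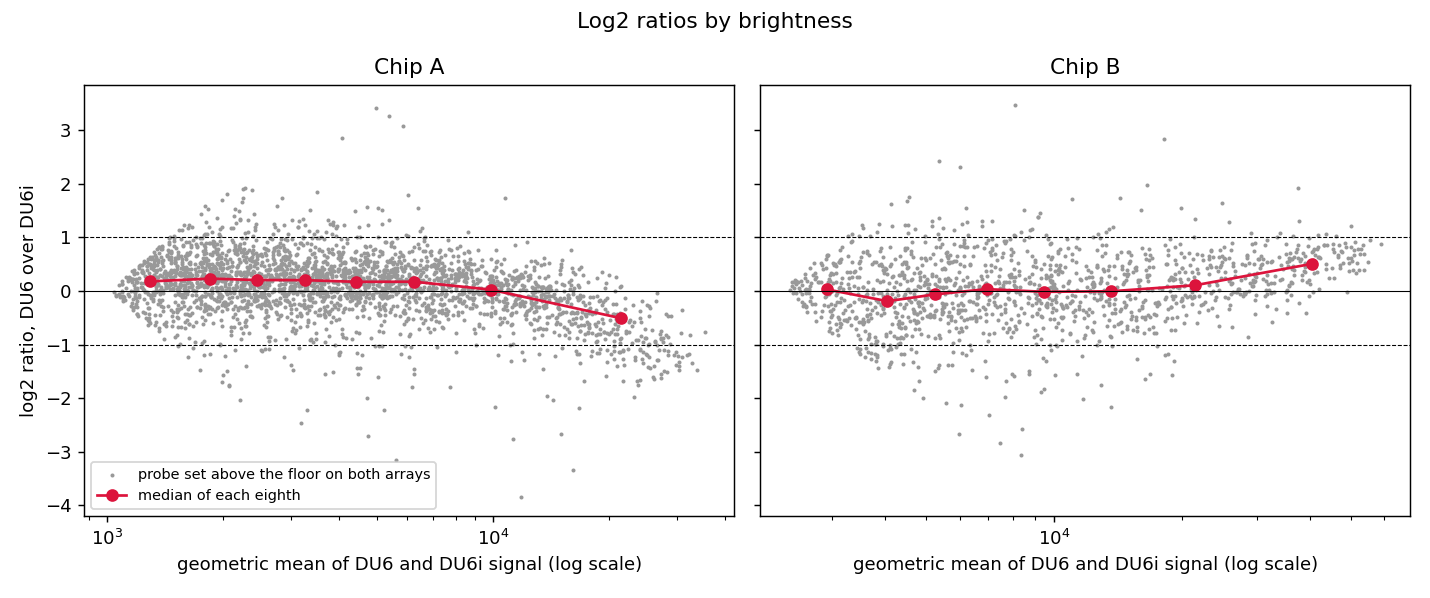
Log2 ratio of DU6 over DU6i against the geometric mean of both signals (log axis) for probe sets above the floor in both lines, for chip A (left) and chip B (right); each grey point is a probe set, each red point the median of an eighth, and dashed lines mark 2-fold. The last red point lies at -0.51 on chip A and at 0.51 on chip B.

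The transcripts placed on both chips showed the same split. Of 17 probe sets above the floor on all 4 arrays of both lines, 11 detect mouse transcripts, and 6 of these 11 had opposite signs on the chips. The murine B2 repeat, an abundant repeated transcript, had signals of 16707 in DU6 and 47564 in DU6i on chip A, and 63095 in DU6 and 34768 in DU6i on chip B. The 3' probe set of Gapdh, a glycolytic enzyme often used as a reference, had a log2 ratio of -1.05 on chip A and 0.58 on chip B. The median difference between the chips was 0.85 in log2 for the 11 mouse probe sets, some of which detect the same transcript. The 6 added bacterial or phage controls had log2 ratios of -0.51 to -0.20 on chip A and -0.68 to 0.05 on chip B. Among the mouse probe sets the sign of a ratio depended on the chip for some bright genes. Counts over many of the lists, and bright genes that lose their 2-fold difference, are therefore given also after centring by brightness. That is, the smooth trend of the log2 ratio on brightness was subtracted within each chip.

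**Figure D2:**
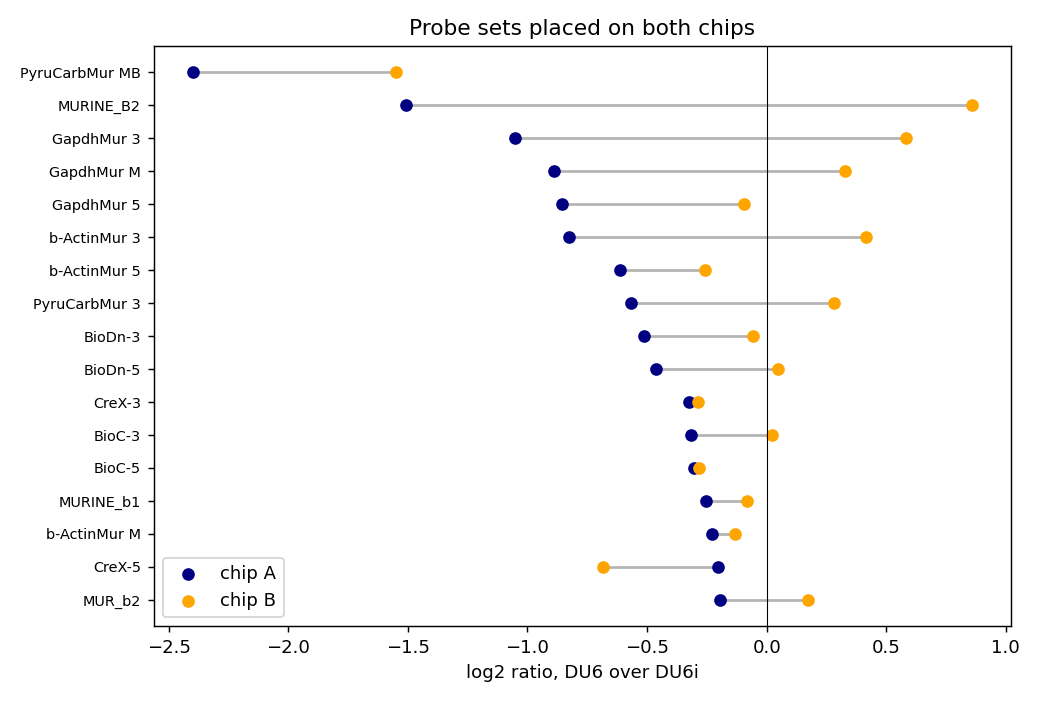
Log2 ratio of DU6 over DU6i for the 17 probe sets placed on both chips and above the floor on all 4 arrays; each row is a probe set, joined between its chip A value (blue) and its chip B value (orange). MURINE_B2 runs between -1.51 on chip A and 0.86 on chip B.

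The RNA of the lines also differed in its signal toward the 5' end of 1 control transcript. For pyruvate carboxylase, a mitochondrial enzyme, signal in the middle of the transcript reached 15.3% of that at its 3' end in DU6 against 54.5% in DU6i on chip A, and 12.7% in DU6 against 45.3% in DU6i on chip B. DUKs had 53.9% and 55.6%, and DBA 19.5% and 14.3%. For actin, 3' signal over 5' signal was 2.12 in DU6 and 2.46 in DU6i on chip A, and 2.75 in DU6 and 1.72 in DU6i on chip B. Where the probes of other genes lie along their transcripts was not analysed here, and the part of this difference in the results below was not tested.

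Across the measured probe sets, 263 (4.8%) were 2-fold or more higher in DU6 and 312 (5.7%) lower, 10.5% in all. With the log2 ratios centred on the median of each chip the split was 208 higher (3.8%) and 369 lower (6.74%). Chip A held 147 of the higher and 172 of the lower probe sets, and chip B 116 and 140. Of these, 46 and 32 on chip A and 47 and 59 on chip B were at the floor in 1 line. Many chip B probe sets have no gene name here, which left 73 of the higher and 94 of the lower ones unnamed. With 1 value per gene, 151 of 3405 genes (4.43%) were higher and 135 (3.96%) lower, 8.4% in all, and the median log2 ratio over all genes was 0.13. Median centring turned this split to 118 higher (3.47%) and 165 lower (4.85%), with a median of 0.04. After centring by brightness 104 genes (3.05%) were higher and 123 (3.61%) lower, with a median of 0.03.

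The largest difference was in Gpx5, the epididymis-specific glutathione peroxidase that is secreted onto sperm. Its signal was 49126 in DU6 and -2544 in DU6i, with 52043.5 in DUKs and 20753 in DBA. DU6i was thus the only line of the 4 without a signal above the floor, and Gpx5 was at least 21.8-fold higher in DU6, before and after centring by brightness. Another 3 genes of the epididymis were higher in DU6 at 2-fold. Lcn2, an iron-sequestering lipocalin made by epididymal epithelium and also by adipocytes and neutrophils, had 48487 in DU6 and 6788 in DU6i, 7.14-fold higher, with 29578 in DUKs and 36012 in DBA. A second Lcn2 probe set gave 27050 in DU6 and 2432 in DU6i. Adam28, a membrane metalloproteinase of the epididymis, had 8176 in DU6 and 1846 in DU6i, at least 3.62-fold higher, with 5106 in DUKs and 24037 in DBA. Adam7, an epididymal relative of it, had 19574 in DU6 and 5914 in DU6i, 3.31-fold higher, with 23896 in DUKs and 21665 in DBA. For each of these 4 genes DU6i was the lowest of the 4 lines.

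Of 12 genes of the epididymis list on the chips, 8 were measured, 4 of them higher in DU6 at 2-fold and 0 lower, beside 4.43% and 3.96% of all genes, and the list's median log2 ratio was 1.29. After centring by brightness the counts were again 4 and 0, with a median of 1.36. The remaining measured members, Cuzd1, Abca1, Cd52 and Clu, had log2 ratios of 0.86, 0.31, -0.33 and -0.60, the last 2 in the opposite direction. Cd52 and Clu are not particular to the epididymis: Cd52 is also a leukocyte antigen, and Clu (clusterin) is made by many cells. Among 11 genes above the floor in some line, DU6i was the lowest line in 7 and DU6 in 2. Such ranks used the deposited signals, and among lines under the floor they order noise. The difference lay mostly on chip B, where the list's median was 2.84 over 3 genes, against 0.31 over 5 genes on chip A, and the 6 genes above the floor in both lines had a median of 0.59. The summed signal of the list was 68679 in DU6 and 54923 in DU6i on chip A, and 108095 in DU6 and 9578 in DU6i on chip B, with 93485 in DUKs and 86849 in DBA on chip B.

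Markers of epithelium leaned the same way. Of 20 mesothelial and epithelial genes on the chips, 17 were measured, and 14 had a log2 ratio above 0, as had 2127 of all 3405 genes. Of the 17, 5 were higher in DU6 at 2-fold with 0 lower, beside 4.43% and 3.96% of all genes. The median was 0.59, against 0.13 over all genes, 0.46 after centring by brightness, and 0.42 over the 11 genes above the floor in both lines. After centring 4 were higher and 0 lower at 2-fold. The desmosomal plaque gene Dsp had 3826 in DU6 and 1094 in DU6i, 3.50-fold higher, and its second probe set 4118 and 1236. The tight junction gene Cldn3 was at least 2.91-fold higher (2978 in DU6, 292 in DU6i), and the protease inhibitor Spint2 at least 2.41-fold higher (5448 in DU6, 1118 in DU6i). The paired keratins of simple epithelia were 2.29-fold higher for Krt18 (0.99 in log2 after centring) and 2.13-fold higher for Krt8. Msln, a surface protein of mesothelium, had 1520 in DU6 and 1536 in DU6i. Among 18 of these genes above the floor in some line, DU6i was the lowest in 13 and DBA the highest in 13. Signals under the floor were ranked too, and their order is noise. Ceacam10, an adhesion molecule secreted by the seminal vesicle, had 7370 in DU6 and 2612 in DU6i, 2.82-fold higher, and was 1 of only 2 measured genes among 16 accessory gland genes on the chips.

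Transcripts of the germ line separated the lines less. Of 40 testis and germ cell genes on the chips 15 were measured. At 2-fold 2 were higher in DU6 and 1 lower, beside 4.43% and 3.96% of all genes, and the median was 0.13, that of all genes. After centring by brightness 1 was higher and 0 lower, with a median of 0.07. Odf1, a protein of the sperm tail, was at least 4.28-fold higher in DU6 (9670 in DU6, 1866 in DU6i), and Smcp, of the sperm mitochondrial capsule, 2.04-fold higher (0.88 in log2 after centring). Dnajb3, a chaperone relative expressed in spermatids, had 2833 in DU6 and 6005 in DU6i, 2.12-fold lower (-0.92 in log2 after centring). The protamine gene Prm1 had 8576 in DU6 and 8740 in DU6i, and the transition protein gene Tnp1 14689 and 10822, both with log2 ratios under the technical SD. These levels were low beside those of DUKs, with 28545 for Prm1 and 47073 for Tnp1, and DUKs was the highest line in 25 of 28 such genes. Whether tissue bordering the pad contributed to the epididymal and epithelial signals was not tested.

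Of the measured genes known for their expression in liver, 11 of 21 were lower in DU6 at 2-fold and 1 was higher, beside 3.96% and 4.43% of all genes. Ahsg, which encodes the plasma protein fetuin-A, had 1880 in DU6 and 16797 in DU6i, 8.93-fold lower, with 5042 in DUKs and 13196 in DBA. The lines thus fell into an order with DU6 lowest, DUKs next, and DBA and DU6i high. Mup5, a major urinary protein, had 1360 in DU6 and 7458 in DU6i, 5.48-fold lower, with 3905 in DUKs and 3105 in DBA. Apoa2, an apolipoprotein of high-density lipoprotein, had 7023 in DU6 and 23812 in DU6i, 3.39-fold lower, with 9021 in DUKs and 28287 in DBA; a second probe set had 5862 in DU6 and 17270.0 in DU6i. Itih1, a heavy chain of a plasma inhibitor that binds hyaluronan, had 1824 in DU6, under the floor, and 7838 in DU6i, at least 3.47-fold lower, with 3479 in DUKs and 7524 in DBA.

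Of 33 genes of the acute-phase and liver-type list on the chips, 21 were measured, and their median was -1.02, against 0.13 over all genes and -0.94 over the 14 above the floor in both lines. Of the 21, 5 lay above 0. After centring by brightness the counts were 9 lower and 1 higher with a median of -0.83. Beyond those above, the lower genes were the adhesion protein Vtn (at least 3.38-fold), the urinary protein Mup3 (2.92-fold), the haem binder Hpx (at least 2.66-fold), Ambp, the precursor of a plasma inhibitor (at least 2.52-fold), the protease inhibitors Serpina3n (2.28-fold) and Serpina1e (2.25-fold), and the retinol carrier Rbp4 (2.03-fold). Serpina3n, Serpina1e and Rbp4 were bright on chip A, and after centring their log2 ratios were -0.32, -0.74 and -0.36. Alb, the albumin gene, named here after its values were seen, had 21333 in DU6 and 38627 in DU6i, with 41207 in DUKs and 34102 in DBA, and a log2 ratio of -0.86 that became -1.16 after centring. The 12 members on chip B had a median of -0.25 and the 9 on chip A one of -1.41. The summed signal of the list was 58691 in DU6 and 146217 in DU6i on chip A, but 233335 in DU6 and 236160.0 in DU6i on chip B. The 1 higher member was Saa3, a serum amyloid A that fat itself makes, with 6685 in DU6 and 2123 in DU6i, at least 2.96-fold higher; its second probe set was higher by 0.55 in log2. Apoe, which macrophages and adipocytes also express, was 1.84-fold higher in DU6 on chip B (47684 in DU6, 25970.4 in DU6i) but 3.02-fold lower by a chip A probe set (11321 in DU6, 34167 in DU6i).

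Enzymes and receptors of the hepatocyte were taken as a further list, chosen after the values above were seen. Of 48 on the chips, 19 were measured, 7 of these were lower in DU6 and 1 was higher, beside 3.96% and 4.43% of all genes, with a median of -0.48 (-0.41 after centring by brightness, with 6 lower and 1 higher). In 11 of the 19 only 1 line was above the floor, and the 8 above it in both lines had a median of -0.11. Cyp3a11, a drug-metabolising cytochrome P450, had 39.1 in DU6 and 8557 in DU6i, at least 3.79-fold lower, with 603 in DUKs and 7365 in DBA, and its second probe set had 105 in DU6 and 6348 in DU6i. Ass1, of the urea cycle, had 280 in DU6 and 9658 in DU6i, at least 4.28-fold lower, with 2764 in DUKs and 7027 in DBA. Both were under the floor in DU6 and clearly above it in DU6i and DBA.

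Pzp, a plasma protease inhibitor, Cyp2f2, a cytochrome P450, and Bhmt, of methionine metabolism, were at least 3.21-fold, 3.17-fold and 3.11-fold lower, each under the floor in DU6 and above it in DU6i and DBA. Akr1c6, a steroid dehydrogenase, was at least 2.54-fold lower. Cyp2e1, a cytochrome P450 also expressed in fat, was 2.53-fold lower (20658 in DU6, 52184 in DU6i) but only by 0.17 in log2 after centring. Sardh, of sarcosine breakdown, was at least 7.17-fold higher in DU6 (7336 in DU6, 48.9 in DU6i), while a second probe set had 4469 in DU6 and 3815 in DU6i. DU6 was the lowest line in 20 of 27 hepatocyte genes above the floor in some line, and DBA or DU6i the highest in 14 and 9. Only 19 hepatocyte genes were above the floor in DU6 or DU6i, so part of these lowest ranks order noise under it. The probe sets of Mup5, Apoa2, Ambp, Serpina1e, Alb, Apoe, Cyp3a11 and Ass1 carry the suffix of sets shared within a gene family, so which member of the family they detect is uncertain. The summed signal of the hepatocyte list was 79117 in DU6 and 122227 in DU6i on chip A, and 11097 in DU6 and 43504 in DU6i on chip B. Among 20 measured genes of complement and coagulation, many of them also liver products, 1 was lower and 1 higher at 2-fold, beside 3.96% and 4.43% of all genes. Their median was -0.08 (-0.22 after centring, again with 1 lower and 1 higher). The lower one was Fgg, the fibrinogen gamma chain, at least 3.51-fold (883 in DU6, 3591 in DU6i), with 10102 in DBA. The higher one was C4bp, an inhibitor of complement, with 16244 in DU6 and 1524 in DU6i, 10.7-fold, 7222 in DUKs and 17241 in DBA. Whether other tissue, or expression in fat cells, gave rise to the liver-type signals was not tested.

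**Figure D3:**
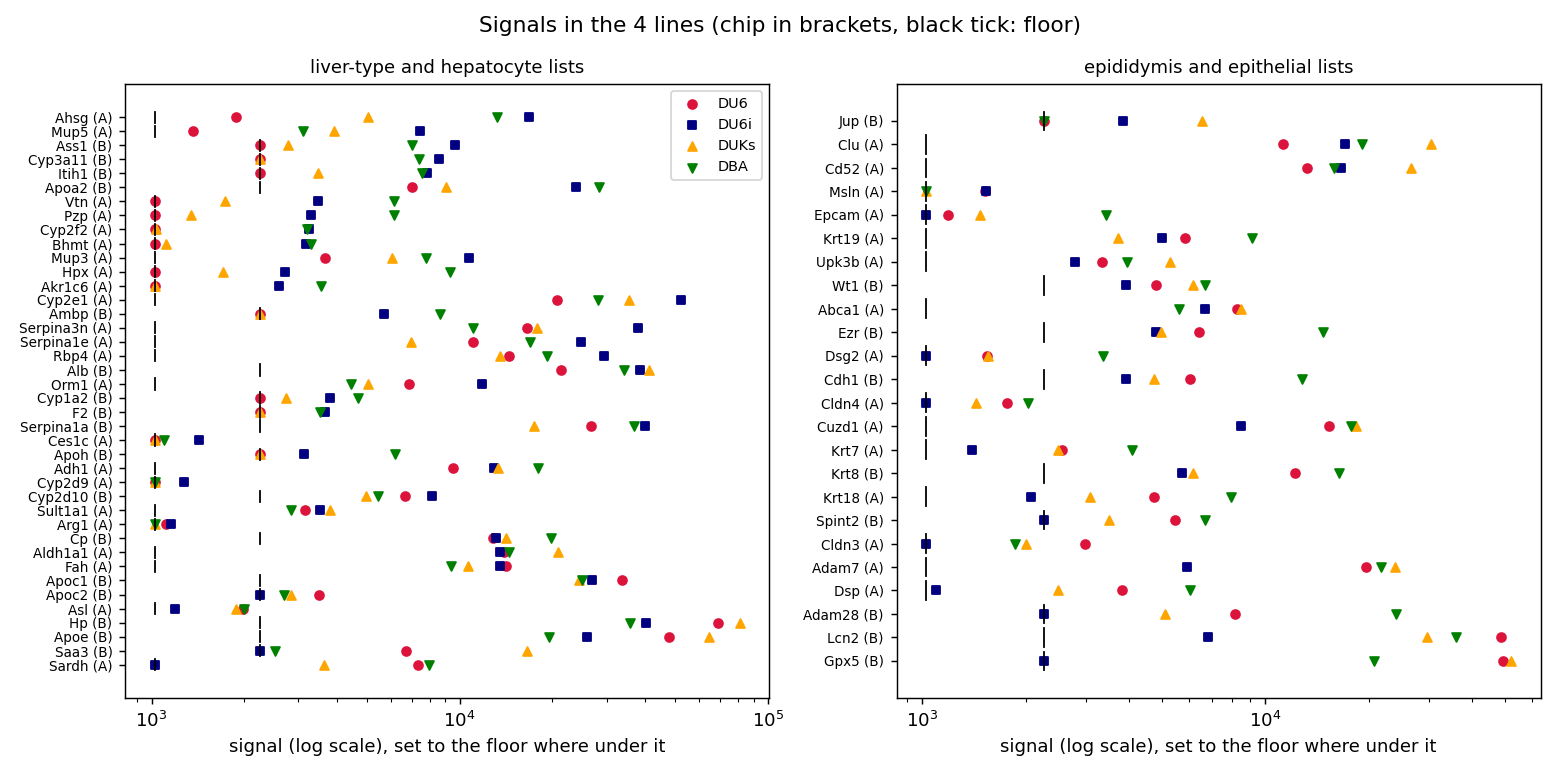
Signals (log axis) of measured members of the liver-type and hepatocyte lists (left) and of the epididymis and epithelial lists (right) in DU6 (red circles), DU6i (blue squares), DUKs (orange triangles) and DBA (green triangles), with genes ordered from the lowest log2 ratio of DU6 over DU6i at the top; a black tick marks the floor of the chip in brackets, to which lower signals were set. DU6 lies left of DU6i for Ahsg (1880 in DU6, 16797 in DU6i) and right of it for Gpx5.

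The stretch before the transcription start is shown for 4 example genes, the epididymal Gpx5 and the liver-type Ahsg, Itih1 and Cyp3a11. Each is the 250 bases upstream of the start in RefSeq on build GRCm38.p6, 5' to 3' on the strand of the gene: chr13:21292687-21292936 (minus strand) for Gpx5, chr16:22891765-22892014 (plus strand) for Ahsg, chr14:30943290-30943539 (minus strand) for Itih1 and chr5:145879855-145880104 (minus strand) for Cyp3a11. Capitals mark exact matches, on either strand, to TATAAA (the promoter box bound by TBP), TGTTCT (a half-site of the androgen receptor), GTTAAT (a half-site of the hepatocyte factor HNF1) or TGTTTAC (the core of FOXA sites); none of these strings contains another.
Gpx5: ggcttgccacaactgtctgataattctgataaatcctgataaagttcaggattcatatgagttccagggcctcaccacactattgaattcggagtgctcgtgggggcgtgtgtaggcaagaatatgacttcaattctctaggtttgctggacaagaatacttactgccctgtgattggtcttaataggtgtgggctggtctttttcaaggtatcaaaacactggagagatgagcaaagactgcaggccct
Ahsg: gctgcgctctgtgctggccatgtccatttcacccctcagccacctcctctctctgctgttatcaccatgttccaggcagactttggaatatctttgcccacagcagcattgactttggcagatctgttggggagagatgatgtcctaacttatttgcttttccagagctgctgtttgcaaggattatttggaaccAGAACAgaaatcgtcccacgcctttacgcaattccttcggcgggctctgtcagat
Itih1: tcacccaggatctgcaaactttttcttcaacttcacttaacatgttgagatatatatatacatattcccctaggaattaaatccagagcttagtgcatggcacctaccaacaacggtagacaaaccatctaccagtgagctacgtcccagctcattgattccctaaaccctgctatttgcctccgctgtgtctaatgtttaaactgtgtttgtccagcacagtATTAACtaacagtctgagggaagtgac
Cyp3a11: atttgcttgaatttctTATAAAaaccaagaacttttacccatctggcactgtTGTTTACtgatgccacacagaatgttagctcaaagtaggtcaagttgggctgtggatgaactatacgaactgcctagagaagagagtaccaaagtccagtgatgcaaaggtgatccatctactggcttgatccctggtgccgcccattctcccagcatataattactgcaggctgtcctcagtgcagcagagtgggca

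In Ahsg the capitals are TGTTCT read on the other strand, in Itih1 GTTAAT on the other strand, and in Cyp3a11 TATAAA and TGTTTAC. Gpx5 holds none of the 4 strings in this window. The liver-type examples were not the lowest throughout: Mup5 had a lower log2 ratio than Itih1, and Ass1 than Cyp3a11. All liver-type examples hold a string, which not all liver-type genes lower in DU6 do. Of the 18 liver-type and hepatocyte genes lower in DU6 at 2-fold, 17 had an upstream stretch in RefSeq. GTTAAT was in 4 of the 17 (23.5%): Itih1, Pzp, Serpina1e and Vtn. TGTTTAC was in 3 (17.6%): Apoa2, Cyp3a11 and Rbp4. TATAAA was in 6 (35.3%) and TGTTCT in 7 (41.2%). Over the 2737 measured genes with an upstream stretch the shares were 5.3% for GTTAAT, 3.03% for TGTTTAC, 9.17% for TATAAA and 13.5% for TGTTCT, and over all 27025 genes with a RefSeq stretch they were 7.49%, 3.54%, 14.3% and 18.2% in the same order. These are matches of letters, not measured binding sites. The 17 genes came from liver lists, and members of those lists that were not lower were not compared. The shares therefore cannot be tied to the difference between the lines. Of the 4 epididymis genes higher in DU6, 2 had an upstream stretch and neither held any of the 4 strings.

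Most genes of the adipocyte itself were lower in DU6 on chip A, and most of those on chip B were not, so values after centring by brightness are given for the bright ones. Lpl, the lipoprotein lipase that frees fatty acids from circulating triglyceride, had 7001 in DU6 and 27218 in DU6i, 3.89-fold lower, with 19095 in DUKs and 15474 in DBA. DU6 was the lowest of the 4 lines, and the log2 ratio of -1.96 stayed at -1.71 after centring by brightness. Scarb1, a receptor for high-density lipoprotein, was at least 3.81-fold lower (631 in DU6, 3901 in DU6i), with a centred log2 ratio of -2.17.

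The hormone genes differed less once brightness was taken into account. Lep, which encodes leptin, had 12446 in DU6 and 27777 in DU6i, 2.23-fold lower, with 8697 in DUKs and 3837 in DBA; its log2 ratio of -1.16 became -0.60 after centring. Both DU6 and DU6i lay above DUKs and DBA. Retn, which encodes resistin, had 13502 in DU6 and 42936 in DU6i, and its log2 ratio of -1.67 became -0.84. Adipoq, which encodes adiponectin, had 21044 in DU6 and 48251 in DU6i, and -1.20 became -0.06. Lipe, the hormone-sensitive lipase, had 14763 in DU6 and 46226 in DU6i, and -1.65 became -0.73. Fabp4, the adipocyte fatty acid carrier, had a log2 ratio of -1.18 before centring and -0.03 after it, and Scd1, a desaturase of fatty acids, -1.38 and -0.31. The direction was the same under both settings for each of these 8 genes, but only Lpl and Scarb1 stayed past 2-fold.

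Dgat2, which catalyses the last step of triglyceride synthesis, was the adipocyte gene furthest in the other direction. It had 72761 in DU6 and 19303 in DU6i, 3.77-fold higher, with 90083 in DUKs and 35559 in DBA, and its log2 ratio of 1.91 became 1.45 after centring. Fasn and Cidec on chip B lay near 0 after centring: the fatty acid synthase Fasn 0.62 before and -0.02 after, the lipid droplet gene Cidec 0.64 and 0.04. The fatty acid transporter Cd36 was instead near 0 before centring, at 0.04, and at -0.49 after it. A chip A probe set of Cd36 had a log2 ratio of -0.92 as deposited. Slc2a4 had a log2 ratio of 0.12 on chip B. Of the regulators of adipocyte identity, Pparg was lower by a log2 ratio of -0.74 (3935 in DU6, 6564 in DU6i; -0.92 after centring) and Cebpa by -0.43 (5948 in DU6, 7989 in DU6i). None of 10 measured adipogenic transcription factors reached 2-fold, beside 8.4% of all genes either way.

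All 20 mature adipocyte markers on the chips were measured. As deposited, 9 were lower in DU6 and 1 higher, beside 3.96% and 4.43% of all genes, with a median of -0.58. Their median was -1.18 for the 13 genes on chip A and 0.23 for the 7 on chip B. After centring by brightness 1 was lower (Lpl) and 1 higher (Dgat2), with a median of -0.18. Of 12 measured genes of lipid uptake, storage and lipolysis, 5 were lower and 0 higher as deposited (median -0.82). After centring 3 were lower (median -0.45): Lpl, Scarb1 and Slc27a1, the last at -0.88 in log2 as deposited and -1.07 after centring. The 5 lower as deposited were Lpl, Scarb1, Lipe, Fabp4 and the monoglyceride lipase Mgll (-1.47 in log2, -0.39 after centring). Of 14 measured genes of fatty acid and triglyceride synthesis, Dgat2 was higher and Scd1 and the citrate carrier Slc25a1 lower; Slc25a1 had 14924 in DU6 and 45331 in DU6i, and its log2 ratio of -1.60 became -0.69 after centring. Of 18 of fatty acid oxidation only Abcd2, a transporter of long fatty acids into peroxisomes, was lower (4642 in DU6, 13914 in DU6i, a log2 ratio of -1.58). The part of the chip scales in these lower signals was not tested beyond the centring.

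**Figure D4:**
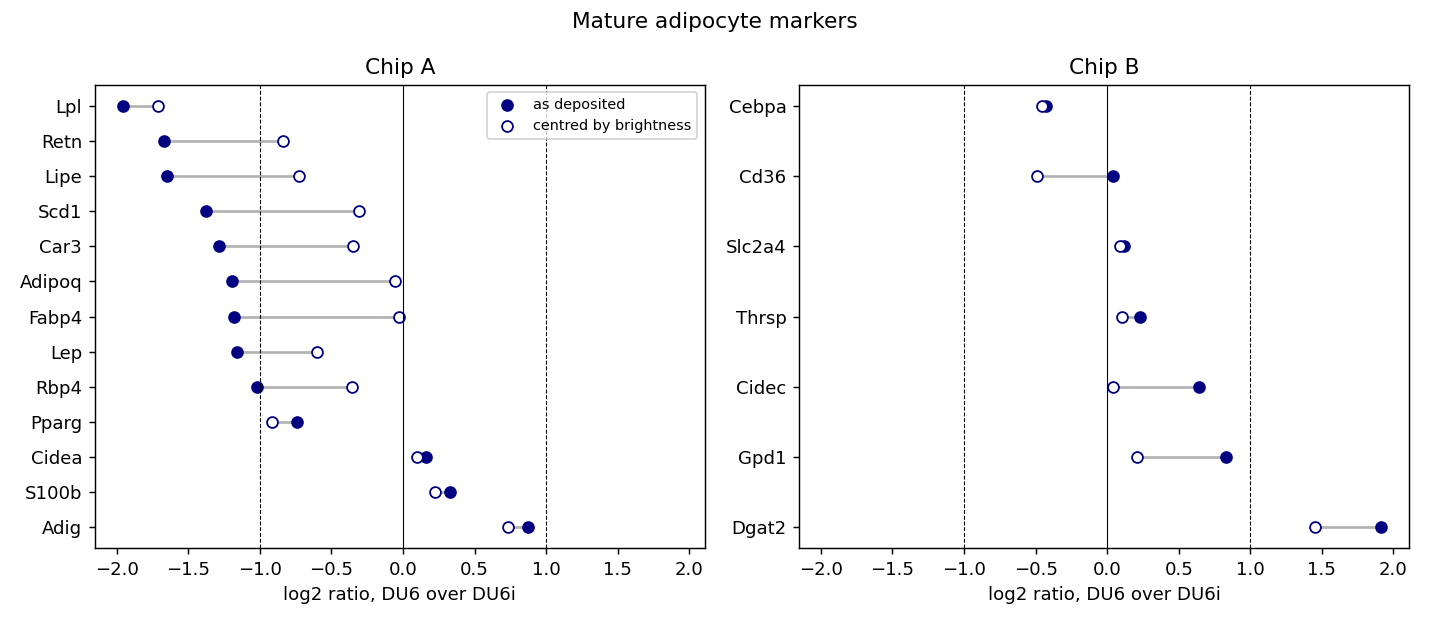
Log2 ratio of DU6 over DU6i of the 20 mature adipocyte markers on chip A (left) and chip B (right), as deposited (filled) and after centring by brightness (open); dashed lines mark 2-fold. On chip A the filled points of Adipoq and Fabp4 lie at -1.20 and -1.18 and their open points at -0.06 and -0.03, whereas Lpl stays at -1.71.

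The growth hormone receptor gene differed between the lines. Ghr had 1534 in DU6 and 7106 in DU6i, 4.63-fold lower, with 3710 in DUKs and 926 in DBA, and the log2 ratio of -2.21 was -2.41 after centring. The order was thus DU6i, DUKs, DU6, with DBA under the floor. DU6 and DBA, the lower lines for Ghr, also had the lower middle signal of pyruvate carboxylase, and a link was not tested. Igf1, the growth factor that growth hormone induces, had 3960 in DU6 and 4932 in DU6i, and Cish, an inhibitor of the same receptor's signalling, 1961 and 1379. Of 12 measured genes of the axis Ghr was the only one at 2-fold, beside 8.4% of all genes either way, and the median was -0.15. After centring 3 of the 12 were lower at 2-fold, among them Igf2, a growth factor, at a log2 ratio of -1.12.

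**Figure D5:**
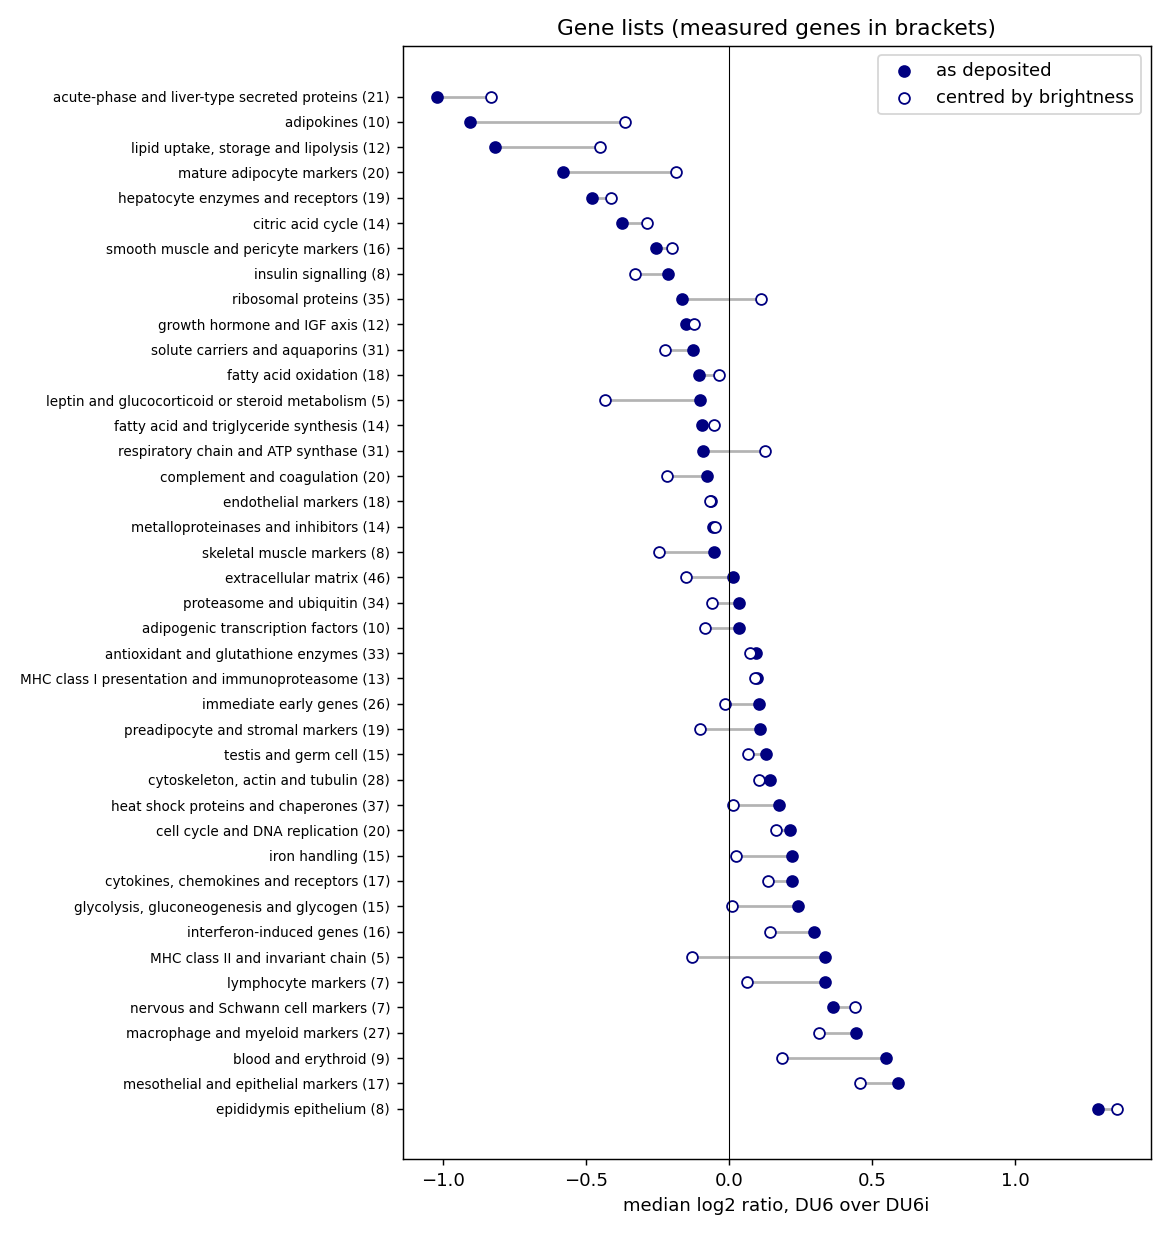
Median log2 ratio of DU6 over DU6i of each gene list with at least 5 measured genes (number in brackets), as deposited (filled) and after centring by brightness (open). The liver-type list lies lowest at -1.02 and the epididymis list highest at 1.29, and the ribosomal protein list crosses 0 between -0.17 and 0.11.

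Several further single genes stood far apart. Slc38a5, a glutamine transporter, had 16577 in DU6 and 1737 in DU6i, 9.55-fold higher, with 21855 in DUKs and 22076 in DBA. Cad, the enzyme of the first steps of pyrimidine synthesis, had 10910 in DU6 and 1517 in DU6i, 7.19-fold higher, with 6304 in DUKs and 13743 in DBA. For both, as for C4bp, DU6i was the lowest of the 4 lines. The same held for the homeobox gene Hoxb6 (4.98-fold higher in DU6), the tryptophan tRNA synthetase gene Wars (3.93-fold), the tryptophan-degrading enzyme Ido1 (at least 5.92-fold) and Pemt, which makes phosphatidylcholine (at least 5.38-fold).

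Also among the 15 highest genes were Smc3, a subunit of cohesin (3.71-fold), Mt3, a metallothionein (3.68-fold), Pdzk1ip1 (3.58-fold), Man1a, a mannosidase of the Golgi (3.44-fold), Tagln3 (3.32-fold) and Btg3, an antiproliferative gene (3.26-fold). Gm10486, a predicted gene, was at least 8.84-fold higher and Fam114a2 at least 4.86-fold. Ntsr2, a neurotensin receptor, had 8457 in DU6 and 58.4 in DU6i, with 455 in DUKs and -116 in DBA, so DU6 was the only line above the floor.

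Actb, beta-actin, gave values that depended on the probe set. Its brightest named probe set had 16284 in DU6 and 991 in DU6i, with 3970 in DUKs and 9049 in DBA, at least 15.9-fold higher. The other 2 named sets had 12206 and 3399 in DU6 and 404 and 235 in DU6i. The control probe set at the 3' end of the same transcript, however, was lower in DU6 on chip A by -0.83 in log2 and higher on chip B by 0.42. The 3 named sets carry the suffix of probe sets shared within a gene family, so the transcript behind them is uncertain.

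The lowest gene was Ifi27, a mitochondrial protein induced by interferon, with 3127 in DU6 and 44633 in DU6i, 14.3-fold lower, 33667 in DUKs and 21161 in DBA. DU6 was the single low line for it. The remaining interferon-induced genes did not share this: of 16 measured, Ifi27 was the only one at 2-fold, beside 8.4% of all genes either way. Of the 16, 12 had a log2 ratio above 0, as had 2127 of all 3405 genes. Their median was 0.30 (0.14 after centring), against 0.13 (0.03 after centring) over all genes. Ifit3 had 2940 in DU6 and 1522 in DU6i, and the GTPase gene Iigp1 2056 and 1258. Among 21 such genes above the floor in some line, DU6i was the lowest line in 16, counting signals under the floor, whose order is noise.

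Rpl41, which encodes a very small ribosomal protein, had 5063 in DU6 and 51314 in DU6i, 10.1-fold lower, with 15018 in DUKs and 11142 in DBA, and stayed at -2.94 in log2 after centring. Of 35 measured ribosomal protein genes, 3 were lower and 1 higher, beside 3.96% and 4.43% of all genes. Their median of -0.17 became 0.11 after centring, when Rpl41 was the only one lower at 2-fold and Rps26 (8096 in DU6, 2753 in DU6i) the only one higher. The respiratory chain showed the same: 3 of 31 genes (Atp5b, Cox8a and Cox6a1, all bright on chip A) were lower as deposited and 0 after centring, with medians of -0.09 and 0.13.

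Among the other lowest genes, Cavin1, the coat protein of caveolae that is abundant in adipocytes, had 4327 in DU6 and 29379 in DU6i, 6.79-fold lower, with 18733 in DUKs and 17780.0 in DBA. Cd151, a tetraspanin of cell adhesion, was 4.07-fold lower (7094 in DU6, 28873 in DU6i), and its chip B probe set had 6443 in DU6 and 28709 in DU6i, a log2 ratio of -2.16. Epas1, the hypoxia-inducible factor HIF-2alpha, was 3.23-fold lower, with a second probe set at -1.67 in log2. DU6 was the lowest line for Cavin1 and Cd151. As for Lpl, the chip A signals of both genes ran in the order of the chip A signal ranges of the lines. For Epas1 both DU6 (1106) and DBA (1179) were near the floor, with 3569 in DU6i and 3112 in DUKs. Sptbn1, a spectrin of the membrane skeleton, was 4.65-fold lower, the zinc finger gene Zfp385a 4.48-fold, the RNA-binding gene Raly 4.09-fold, the sorting receptor Surf4 of the secretory pathway 3.44-fold and the mitochondrial gene Nipsnap2 3.40-fold. Sptbn1, Raly and Nipsnap2 were about as low in DBA (2392, 1163 and 1325) as in DU6 (2418, 1092 and 1124). Zfp385a and Surf4 were higher in DBA (9046 and 10227) than in DU6 (4775 and 4165). DU6 and DBA also had the lower middle signal of pyruvate carboxylase, and a link was not tested.

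Among the bounds, Nr2c2ap was at least 8.18-fold lower (789 in DU6, 8362 in DU6i). Rhob, a small GTPase, was at least 3.39-fold lower (1496 in DU6, 7662 in DU6i), and DBA was under the floor as well (1215). Akap1, a mitochondrial anchor of protein kinase A, was at least 4.18-fold lower on chip B (2179 in DU6, 9436 in DU6i), whereas its chip A probe set was near equal at a log2 ratio of 0.19.

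Cells of the immune system and of vessels showed small shifts. Of 27 measured macrophage and myeloid markers, 19 had a log2 ratio above 0, as had 2127 of all 3405 genes. After centring these counts were 16 of 27 and 1813 of 3405. The median was 0.44 (0.31 after centring), and 1 was higher and 1 lower at 2-fold, beside 4.43% and 3.96% of all genes. The higher one was Hmox1, which degrades haem, with 4787 in DU6 and 1910.0 in DU6i, 2.51-fold. The lower one was the lysozyme gene Lyz2, at -1.12 in log2 as deposited and -0.11 after centring. The macrophage surface markers Cd68 and Adgre1 had log2 ratios of 0.30 and -0.48. DU6 was the highest of the 4 lines in 18 of the 27. Of 18 measured endothelial markers, Cd34, a surface sialomucin also on stromal cells (at least 3.28-fold), and the adhesion molecule Pecam1 (at least 2.33-fold) were lower and 0 were higher. Both were under the floor in DU6. Of the 18, 9 had a log2 ratio above 0, among them Ptprb at 0.82 and Eng at 0.51 (0.88 and 0.21 after centring). The median was -0.06.

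Of 16 smooth muscle markers 3 were lower, the contractile genes Myh11 (2.26-fold) and Cnn1 (2.05-fold) and the LIM protein gene Csrp1 (2.93-fold), and 0 higher, with a median of -0.25. All 3 passed 2-fold after centring as well. Of the 16, 4 had a log2 ratio above 0, among them Acta2, with 67056.5 in DU6 and 41432 in DU6i (0.69 in log2, 0.02 after centring). Over all genes 3.96% were lower and 4.43% higher. Of 9 genes of blood, the haemoglobin gene Hba-a1 was 2.47-fold higher (59306 in DU6, 24005 in DU6i; 0.84 in log2 after centring) and Car1, a carbonic anhydrase of red cells, at least 2.37-fold higher. Whether blood left in the tissue contributed was not tested.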

How the data were processed

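Transcript levels were measured on 8 Affymetrix arrays, chip A and chip B for 1 pool of each of 4 mouse lines; DU6 and DU6i were compared. Per the labels, the intensity values come from the authors' use of Data Mining Tool 1.2 and Microarray Suite 4.0.1, with scaling per array on the whole of its probe sets, which sets an array's overall level but not its range. These deposited intensity values are on a linear scale, with 12.8% to 30.5% of an array's values negative. Gene names came from the platform annotation, updated through RefSeq.

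The floor, the log2 ratio and the 2-fold rule are described above; the probe set with the highest mean over the 4 arrays of its chip stood for a gene. Centring by brightness subtracted a lowess curve (span 0.3) per chip. Other settings were 0.5 times and 2 times the floor, log2(signal + floor), both lines above the floor, quantile normalisation, median centring, leaving out probe sets with a mean above 10000, each chip alone and the median over the probe sets of a gene. Named genes were the 15 highest and 15 lowest above the floor in both lines, the 8 largest bounds each way, list members at 2-fold with the 2 highest and 2 lowest of each list, and a fixed set of adipocyte, growth, macrophage, testis and epididymis genes, 234 in all. The comparison, its members and the 45 gene lists were chosen with earlier results of these data known, and 1 list after its values were seen. The code was tested on simulated data. Python 3.11.15, numpy 2.4.6, pandas 2.3.3 and statsmodels 0.14.6 were used.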

Additional observations from a re-analysis of the deposited data

How the results depend on the processing

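No paired analysis was possible because each line is 1 pool with no replicate. The count of probe sets at 2-fold followed the floor: 0.5 times the floor gave 475 higher and 552 lower in DU6, and 2 times the floor 121 and 177. With both lines above the floor 170 were higher, and without bright probe sets 200 were lower. Chip A alone gave 147 and 172, chip B alone 116 and 140. Calls under centring by brightness included 189 of the 263 higher (71.9%) and 221 of the 312 lower (70.8%). Of 49 named genes higher and 77 lower at 2-fold, 41 and 49 were still so after that centring and 42 and 50 after quantile normalisation. None of these log2 ratios changed sign under any setting run. Only centring, quantile normalisation and the median over probe sets could change the sign of a single gene, as the remaining settings keep it by construction. Of the named genes under 2-fold, 12 changed sign under at least 1 setting, among them Fasn, Cd36, Fth1 and Apoe.

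Medians of some lists that lay past the technical SD over the root of their number of genes changed sign. On chip B alone this held for mature adipocyte markers (0.23), adipokines (2.20), lipid uptake, storage and lipolysis (0.039), the citric acid cycle (0.57), the respiratory chain (0.25), ribosomal proteins (0.61) and the cell cycle (-0.031), and on chip A alone for glycolysis (-0.057). Without bright probe sets adipocyte markers had 0.14 and ribosomal proteins 0.63. After quantile normalisation the respiratory chain had 0.13, ribosomal proteins 0.12, MHC class II -0.12, glycolysis -0.014 and iron handling -0.013. After centring by brightness the respiratory chain had 0.13, ribosomal proteins 0.11, MHC class II -0.13 and immediate early genes -0.016. MHC class II had -0.061 with 2 times the floor. Antioxidant enzymes had -0.0112 after median centring and -0.0188 by the median of probe sets. The cause of these changes was not tested. Dividing the SD by the root of the number of genes takes genes as independent. A shift by brightness on a chip moves them together, so a median past this limit can still be uncertain. Signals near the floor give bounds only, and no spread between animals can be had from 1 pool per line.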

Other observations

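Transporters and enzymes of stress and repair also held genes at 2-fold, to be read beside 4.43% of all genes higher in DU6 and 3.96% lower. Of 31 measured solute carriers and aquaporins, 2 were higher in DU6 and 4 lower, with a median log2 ratio of -0.13. Beside Slc38a5, the higher one was the glutamate transporter Slc1a1, at least 4.55-fold (4650 in DU6, 511 in DU6i). The lower ones were the citrate carrier Slc25a1 (-1.60 in log2, -0.69 after centring by brightness), the monocarboxylate transporter Slc16a1 (at least 2.92-fold), the betaine transporter Slc6a12 (at least 2.73-fold) and the glutamine transporter Slc1a5 (2.28-fold, but -0.14 in log2 after centring by brightness). Of 33 antioxidant and glutathione enzymes, the metallothioneins Mt1 (34197 in DU6, 13521 in DU6i) and Mt3 and the haem oxygenase Hmox1 were higher at 2-fold, before and after centring. The extracellular superoxide dismutase Sod3 and the peroxidase Gpx4 were lower at 2-fold as deposited and had -0.71 and -0.54 in log2 after centring.

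Of 14 measured metalloproteinases and inhibitors, 3 were higher: Timp1, an inhibitor of matrix metalloproteinases (8033 in DU6, 2527 in DU6i, 3.18-fold), Adam8 (at least 2.90-fold) and the epithelial matrilysin Mmp7 (2.65-fold); Adam12 was lower (at least 2.03-fold). Of 46 extracellular matrix genes, the collagen-binding proteoglycan Fmod was higher, 2.94-fold, as was its second probe set by 1.74 in log2, and 4 were lower: Ogn and Hspg2 at log2 ratios of -1.03 and -1.02 (-1.18 and -1.01 after centring), and Eln and Col4a2 at -1.19 and -1.01 as deposited but -0.18 and -0.07 after centring. Of 26 immediate early genes, the transcription factor Egr2 was at least 2.71-fold higher, while Rhob, Klf2 (2.87-fold) and Ptgs2 (at least 2.15-fold) were lower. None of 34 proteasome and ubiquitin genes and none of 37 heat shock and chaperone genes reached 2-fold, with medians of 0.03 and 0.17. Over all genes 4.43% were higher and 3.96% lower, 8.4% in all, and the median was 0.13.

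Some genes gave opposite values on the chips. The glycolytic enzyme Aldoa had 63068 in DU6 and 30386 in DU6i on chip B, 2.08-fold higher (0.50 in log2 after centring), but 10545 in DU6 and 26663 in DU6i on chip A. The tubulin gene Tuba1a was at 0.86 in log2 on chip B and at -1.49 on chip A. By chromosome, the share of measured genes at 2-fold either way ran between 5.75% (chromosome 18) and 11.7% (chromosome 16), beside 8.4% over all genes.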
